A study of Mus musculus with 2 samples.

Results

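Muscle-rich spots of the KO tumour section were the spots with the largest share of fast skeletal muscle RNA, and most of them lay near the edge of the tissue. They were chosen among the 2524 KO spots with at least 2000 UMIs (unique molecular identifiers, each standing for 1 captured probe molecule) as the top 3% by the summed CPM, the usual scaling of UMIs to an equal total, of Myh4, Atp2a1, Tnnt3, Tnnc2 and Pvalb. This gave 75 spots, set against 2449 other KO spots and, within those, against 152 neighbours at most 3 steps away on the hexagonal capture grid. The 2 sections of the study together held 5299 spots with at least 2000 UMIs. A spot is a small area of tissue that can hold several cells of different kinds.

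The sections were profiled with Visium CytAssist, in which ligated probe pairs from fixed tissue are moved onto barcoded spots. The KO section came from a B16.F10 tumour, a pigmented mouse melanoma line, grown in a Foxp3-Cre x CK2b-fl/fl mouse, where Cre under Foxp3 control deletes Csnk2b in regulatory T cells. The WT section came from a B16.F10 tumour in a Csnk2b fl/fl mouse that carries the floxed gene and, per its label, is wild type. Both mice were untreated and 8 to 16 weeks old, the tumours, of comparable size, were taken on day 15, and the sections were 10 µm thick. There is 1 section per genotype, so no difference has a replicate check, spots were not used as replicates and no p-value was computed. Intervals in brackets are exact 95% intervals that cover counting error only.

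Skeletal muscle is built of long fibres whose sarcomeres slide thick myosin filaments along thin actin filaments when calcium is released. Fast fibres use their own forms of myosin, troponin and calcium pump, and slow fibres use others. A tumour under the skin lies next to thin muscle and fascia, and where it grows against muscle, immune cells, vessels and connective tissue are found between and around the fibres.

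The muscle-rich spots were shallow. Their median was 8681 UMIs and 3879 genes per spot, against 28416 UMIs in the neighbours and 39859 UMIs in all other spots. For this reason immune RNA is described both as CPM, a share of the RNA in a set of spots, and as UMIs per spot, the amount captured from an equal area. Fewer cells of a type and less RNA per cell cannot be told apart in either measure. A further set of 122 spots more than 3 steps away, with melanocytic CPM no higher than 10198.3, the 75th percentile of the muscle-rich spots, serves as shallow tissue with little tumour and almost no muscle RNA, and had a median of 6194.5 UMIs. This tumour-poor set was added after the depth and melanocytic content of the muscle-rich spots were seen.

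The spots formed 2 large patches at opposite sides of the tissue. The first held 44 spots near a corner of the capture frame, at grid rows 0 to 12 and columns 4 to 16. The second held 23 spots along the other margin, at rows 31 to 41 and columns 99 to 109. The remaining 8 spots lay in groups of 1 to 3. Of the 75 spots, 66 were within 3 steps of a position without tissue and none was more than 5 steps away, as the map of the section shows. The rim, within 2 steps of such a position or of the outside of the capture frame, held 80% of them. It held 61.2% of neighbours, 28.2% of all other spots and 90.2% of tumour-poor spots. By patch it held 65.9% of the 44 spots and 100% of the 23.

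**Figure D1:**
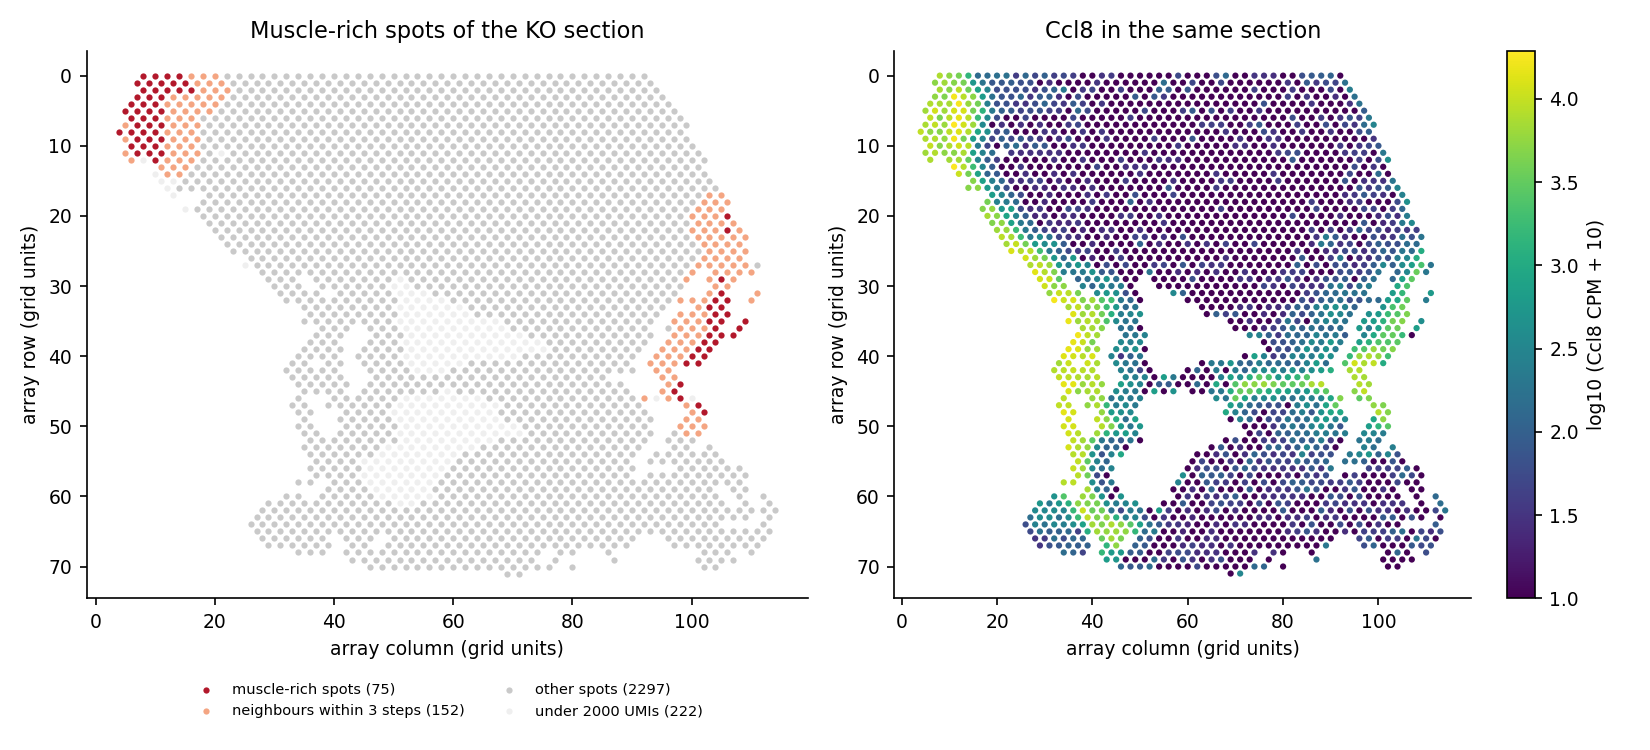
Spots of the KO section by array column and row (grid units). Left, the 75 muscle-rich spots sit mostly in 2 patches on opposite margins, with their 152 neighbours around them. Right, Ccl8 per spot as log10 (CPM + 10) is high in both patches and also along a tumour-poor margin on the left side that holds no muscle-rich spot.

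The 5 marker genes that chose the spots are given as a description. Their summed CPM was 1558 to 46985 with a median of 8797 in the muscle-rich spots, and its median in all other spots was 0. The 2 spots just inside the limit had 1558 and 1588 CPM, and the 2 just outside had 1482 and 1438 CPM. Tnnc2, the calcium-binding troponin of fast fibres, reached 2722 CPM in the summed muscle-rich spots, against 56.8 CPM in neighbours and 4.59 CPM in all other spots. Myh4, the fastest myosin heavy chain, had 2569, 55.6 and 3.82 CPM in the same 3 sets. When each marker was left out in turn and the spots chosen by the other 4, at least 73 of the 75 spots were the same. The left-out gene was then 503-fold to 730-fold higher in the chosen spots than in all others and 39.6-fold to 67.2-fold higher than in neighbours.

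Sarcomere genes that the rule did not use were concentrated in the same spots, though less strongly than the markers. Over neighbours the median log2 ratio was 4.58 for the fast thick filament list, 4.76 for the fast thin filament list and 4.48 for the calcium handling list, beside 5.53 for the markers. All 9 measured genes of the fast thick filament list, all 10 of the fast thin filament list and all 12 of the calcium handling list were at least 2-fold higher in muscle-rich spots than in both neighbours and all other spots. Measured means at least 100 UMIs over the KO spots, and of the 12229 such genes 20.2% were at least 2-fold higher than in all other spots and 15.2% than in neighbours. With a stricter minimum of 500 UMIs, 1182 of 9993 genes, or 11.8%, were 2-fold higher than in all other spots and 821, or 8.22%, than in neighbours. Acta1, skeletal muscle actin and the main protein of the thin filament, ranged over spots from 767 to 25195 CPM with a median of 6306, against a median of 72.4 in neighbours. In the summed spots it stood at 6795 CPM, 30.4-fold above neighbours (28.5 to 32.4). Acta1 gave no UMI in the tumour-poor spots.

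Genes of fibre energy use followed the same layout. Ckm, muscle creatine kinase, which buffers ATP during contraction, had 2336 CPM in muscle-rich spots, 53 CPM in neighbours and 12 CPM elsewhere. Pgam2, the muscle form of a glycolytic mutase, was 61.7-fold above neighbours (39.3 to 102), and Casq1, which holds calcium inside the fast fibre's store, 56.9-fold (35.4 to 96.8). Of the 13 measured energy genes, 11 were at least 2-fold higher than in neighbours. Tcap, which caps titin at the end of the sarcomere, was 71.7-fold higher (48.4 to 111). Car3, a carbonic anhydrase abundant in muscle and in fat, had 1824 CPM in muscle-rich spots, 45 CPM in neighbours and 3.48 CPM in other spots.

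Genes of slow fibres were sparse in these spots, apart from those that other cells use too. Of 12 listed slow and cardiac type genes only 3 reached 100 UMIs over the section. Tnnt1, the troponin T of slow fibres, had 6 UMIs in the 75 spots, or 7.33 CPM, against 2199 CPM for its fast counterpart Tnnt3, and probes of different genes are not calibrated against each other. Atp2a2, the calcium pump of slow fibres and of many other cells, was lower in muscle-rich spots at 421 CPM, against 635 CPM in neighbours, a ratio of 0.663 (0.592 to 0.741).

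Genes of fibre repair, denervation and load were detected among the fibres. Myog, a transcription factor switched on when muscle precursors differentiate and in fibres that lose their nerve, had 42 UMIs in muscle-rich spots, 29 UMIs in neighbours and 111 UMIs in all other spots, or 51.3, 5.8 and 1.19 CPM. Chrna1, a subunit of the muscle acetylcholine receptor, was 14-fold above neighbours (7.74 to 26.4). The ubiquitin ligases of muscle wasting differed in size, with Fbxo32 at 6.46-fold (4.59 to 9.09) and Trim63 at 2.22-fold (1.9 to 2.59) above neighbours. Of 11 measured genes of the denervation and atrophy list, 4 were at least 2-fold higher than in neighbours and none was 2-fold lower. Myh3, the embryonic myosin of newly formed fibres, gave only 3 UMIs.

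The patches differed in some genes that muscle expresses, named here after their values were seen. Ankrd1, a sarcomere protein induced by mechanical strain, had 235 CPM in the patch of 44 spots and 985 CPM in the patch of 23, a ratio of 0.238 (0.187 to 0.302). Hspb1, a small heat shock protein, had 172 and 592 CPM in the same order, and Flnc, a filamin of the sarcomere's edge, 271 and 827 CPM. Pvalb, the calcium buffer of the fastest fibres and one of the markers, ran the other way with 1429 and 782 CPM. The smaller patch thus had more RNA of Ankrd1, Hspb1 and Flnc and less of Pvalb, and spots do not show which cells held it.

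Pigment cell and proliferation genes of the tumour were lower in muscle-rich spots. Of the 9993 genes, 1641, or 16.4%, were at least 2-fold lower than in all other spots and 1120, or 11.2%, than in neighbours. All 12 melanocytic genes were at least 2-fold lower in both comparisons, as were 16% and 11.8% of the 12229 genes. Pmel, a structural protein of pigment granules, had a median of 791 CPM over muscle-rich spots with a range of 0 to 8337, against a median of 3429 CPM in neighbours and 4554 CPM in all other spots. The melanocytic list made up 1.29% of UMIs in muscle-rich spots, 3.76% in neighbours and 5.005% in all other spots, so tumour RNA was present in the muscle-rich spots at a lower level and the ranges overlap. The tumour-poor spots were chosen for low CPM of this same list, so their lower level was set in part by that choice and is given as a description. Against them 8 of the 12 melanocytic genes were at least 2-fold higher, with Pmel at 1429 CPM in muscle-rich spots and 562 CPM in tumour-poor spots. Mki67, a marker of dividing cells, was 0.483 times its level in neighbours (0.415 to 0.559), and all 10 measured proliferation genes were at least 2-fold lower than in all other spots.

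The genes with the lowest ratios cannot be ranked. Among the 15 lowest against all other spots, 13 had no UMI in the muscle-rich spots and the others had 1, so no fold is given for them. A count of 0 in the 819025 UMIs of the muscle-rich spots allows up to 3.66 CPM, taken as 3 counts.

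Immune RNA made up a larger share of the muscle-rich spots than of their neighbours and of all other spots. The 20 immune lists took 7.10% of UMIs in muscle-rich spots, 3.20% in neighbours and 1.64% in all other spots. Of the 198 immune genes with at least 100 UMIs, 175 were at least 2-fold higher in CPM than in all other spots, or 88.4%, against 20.2% of all 12229 genes at that count. Against neighbours 141 were, or 71.2%, against 15.2% of all genes. The median log2 ratio of the immune genes was 3.16 against all other spots and 1.40 against neighbours, and that of all genes was -0.19 and -0.18.

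The count against neighbours depended on how the sets were drawn. It was 54 with neighbours 1 step away, 46 when each spot had equal weight and 19 when the top 1% of spots were taken, whose neighbours include other muscle-rich tissue. It also depended on the patch. Against its own 53 neighbours the patch of 44 spots had 146 immune genes at least 2-fold higher, or 73.7%, with 17.7% of all genes. The patch of 23 spots had 25 against its own 43 neighbours, or 12.6%, with 9.28% of all genes. With the larger patch left out, the remaining 31 spots and all of their own neighbours gave 118.

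The amount of immune RNA per area exceeded that of the neighbours at least 2-fold for few genes. In UMIs per spot 115 of the 198 immune genes were at least 2-fold above all other spots, where 8.23% of all genes were. Only 7 were at least 2-fold above neighbours, or 3.54%, against 2.1% of all genes, and 73 were above neighbours at all, or 36.9%, against 7.77% of all genes. A further 33 were at least 2-fold below neighbours, or 16.7%, where 78% of all genes were. Of the larger lists, some were below and some above neighbours per spot. The macrophage sum stood at 0.441, interferon gamma genes at 0.634 and MHC class I genes at 0.64 times the UMIs per spot of neighbours. Chemokines stood at 1.30, complement at 1.24, resident and type 2 macrophage genes at 1.20 and MHC class II genes at 1.08 times. The macrophage sum includes Gpnmb, which pigment cells also make. Of the 18 macrophage genes, 8 were above neighbours per spot, with a median log2 ratio of -0.10. The 7 at least 2-fold above neighbours were Cxcl13, S100a8, C6, Gbp2b, Cd163, Lyve1 and Gas6. With counting error alone, 33 immune genes had an interval above 1 against neighbours, 66 an interval below 1 and 99 an interval that spans 1. All genes together averaged 10920.3 UMIs per spot in muscle-rich spots and 32917 in neighbours, and the part of this depth in the CPM ratios was not tested.

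Against shallow tissue without muscle the immune genes split by cell type. Of the 198, 62 were at least 2-fold higher in CPM in muscle-rich spots than in tumour-poor spots and 46 were at least 2-fold lower, while 20.2% and 7.69% of all genes were. At least 2-fold higher were 14 of the 15 pan T cell genes, 10 of the 11 CD8 and cytotoxic genes and 5 of the 8 neutrophil genes. At least 2-fold lower were 10 of the 14 resident and type 2 macrophage genes and 8 of the 12 complement genes. A total of 47 immune genes, or 23.7%, were at least 2-fold higher than in all other spots, neighbours and tumour-poor spots at once, as were 5.52% of all genes. The scatter of the immune genes shows these contrasts gene by gene.

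**Figure D2:**
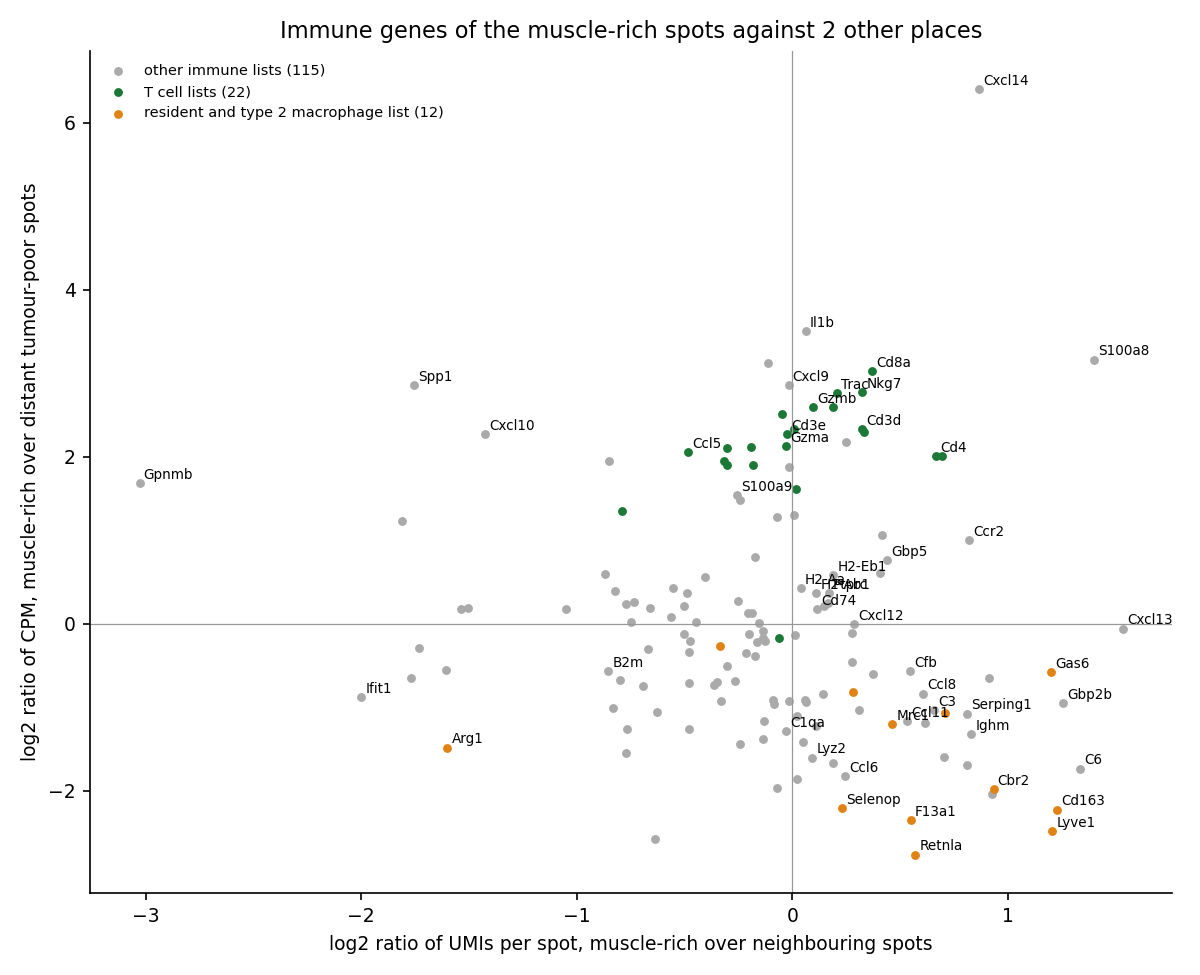
Immune genes with at least 20 UMIs in muscle-rich spots. The horizontal axis is the log2 ratio of UMIs per spot over neighbours and the vertical axis the log2 ratio of CPM over distant tumour-poor spots. Most T cell genes gather near 0 on the horizontal axis and above 1 on the vertical, genes of the resident and type 2 macrophage list lie mostly at lower right, and Cxcl14 stands highest.

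Chemokines, the secreted proteins that guide leukocytes, were high around the muscle. All 13 measured chemokine list genes were at least 2-fold higher than in all other spots and 11 than in neighbours. Ccl8 (chromosome 11, 82115185 to 82116799 in GRCm38), a ligand that draws monocytes and is made by resident macrophages, ranged from 0 to 19419.9 CPM over the muscle-rich spots with a median of 4992. Its median was 619 CPM over neighbours and 21.8 over all other spots. In the sums it was 4.59-fold above neighbours (4.4 to 4.78) and 1.52-fold in UMIs per spot (1.46 to 1.59). Most muscle-rich spots were thus high, yet the ranges overlap, and the tumour-poor spots had still more Ccl8 at 8574 CPM, against 4806 CPM in the muscle-rich spots.

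Cxcl14 had the highest ratio over tumour-poor spots among the immune genes plotted. Cxcl14 (chromosome 13, 56288643 to 56296811), a chemokine made by fibroblasts and epithelia, had a median of 693 CPM over muscle-rich spots with a range of 0 to 2412, a median of 64.8 CPM over neighbours and a median of 0 over all other spots. Summed, it stood at 824, 150.1 and 10.3 CPM in these sets, and at 9.72 CPM, from 8 UMIs, in the tumour-poor spots. The muscle-rich level was 84.8-fold that of the tumour-poor spots (42.8 to 197), and 1.82-fold that of neighbours in UMIs per spot (1.64 to 2.02). Both patches had it, with 923 CPM in the larger and 796 CPM in the smaller.

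Other chemokines had other layouts. Cxcl13, which attracts B cells and some T cells, had 110 UMIs in muscle-rich spots and the largest excess per spot over neighbours, 2.9-fold (2.14 to 3.93), while its CPM was 0.961 times that of the tumour-poor spots, with an interval that spans 1 (0.733 to 1.26). Cxcl9, a T cell attractant induced by interferon gamma, had 335 CPM in muscle-rich spots, 112 in neighbours, 33.9 in all other spots and 46.2 in tumour-poor spots. Its UMIs per spot were 0.988 times those of neighbours (0.852 to 1.14). Cxcl10, a ligand of the same receptor, was within 2-fold of neighbours, with 427 CPM in muscle-rich spots and 381 CPM in neighbours. Ccl5, made by T cells and natural killer cells, had 872 and 404 CPM. Ccl11, an eosinophil attractant, and Ccl6 were 4.36-fold and 3.57-fold above neighbours but below the tumour-poor spots, at 0.445 and 0.282 times their CPM. Ccr2, a chemokine receptor of monocytes, was 5.32-fold above neighbours (4.36 to 6.5).

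**Figure D3:**
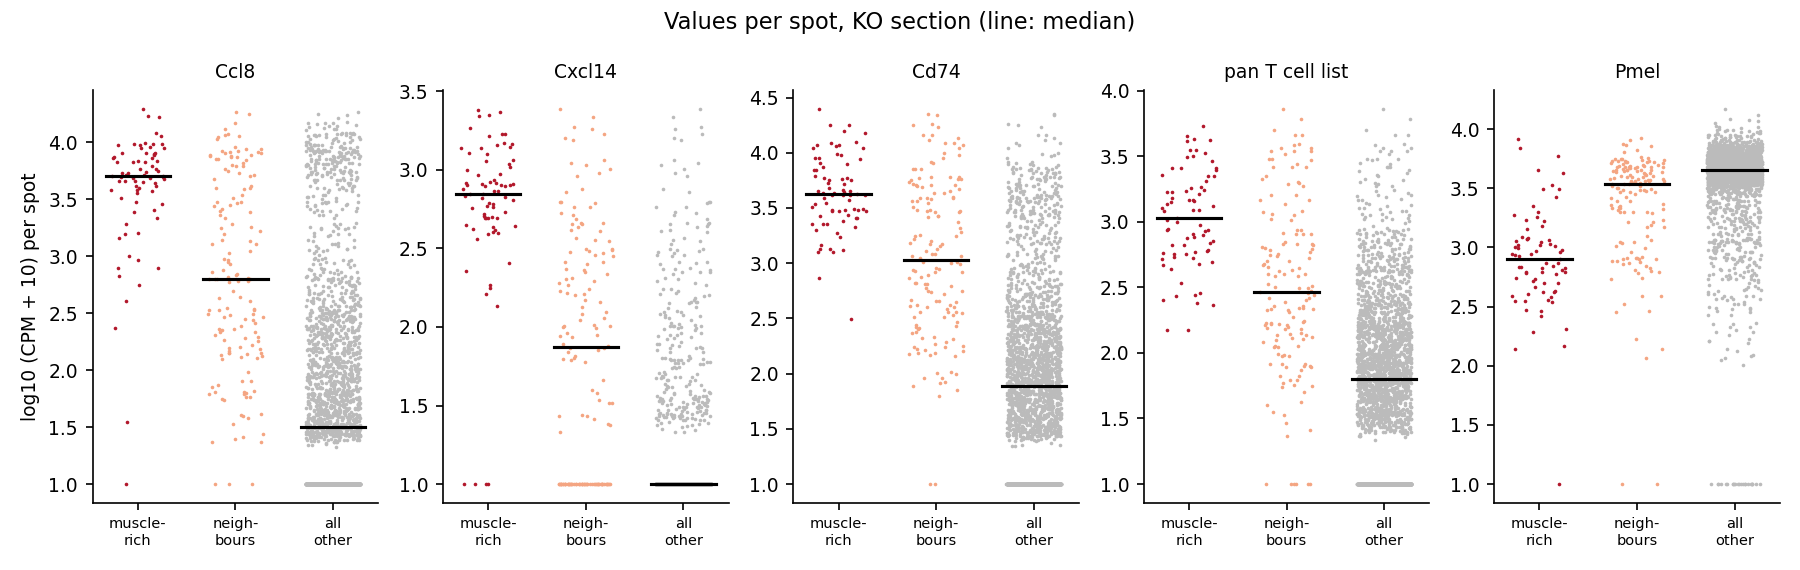
Each point is a spot of the KO section, with log10 (CPM + 10) on the vertical axis for Ccl8, Cxcl14, Cd74, the summed pan T cell list and Pmel. Columns are muscle-rich spots, their neighbours and all other spots, neighbours included, and lines are medians. The muscle-rich medians are the highest for the first 4 panels and the lowest for Pmel, and the ranges overlap in every panel.

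T cell RNA took a higher share of the muscle-rich spots than of any of the 3 comparison sets, and its amount per spot was near that of neighbours. All 15 measured pan T cell genes were at least 2-fold higher in CPM than in all other spots, 14 than in neighbours and 14 than in tumour-poor spots. Cd3e, which carries the signal of the T cell receptor, had 96 UMIs in the 75 muscle-rich spots, with 117 CPM against 39.6 in neighbours, 9.16 in all other spots and 24.3 in tumour-poor spots. Over spots its range was 0 to 706 CPM with a median of 85.2, and the median of neighbours was 0 CPM. Per spot it gave 1.28 UMIs in muscle-rich spots and 1.3 in neighbours, a ratio of 0.983 (0.762 to 1.26). Trac, the constant part of the receptor's alpha chain, had a ratio per spot of 1.15 (0.91 to 1.46). None of the 15 genes was 2-fold higher or lower than in neighbours per spot, against the same 78% of all genes that were 2-fold lower. The 14 measured pan T cell genes without Thy1, which fibroblasts also express, gave 11.9 UMIs per spot in muscle-rich spots, 12.02 in neighbours, 3.10 in all other spots and 1.57 in tumour-poor spots.

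Genes of killer cells behaved likewise. All 11 measured CD8 and cytotoxic genes were at least 2-fold higher in CPM than in all other spots and 10 than in neighbours. Cd8a, the coreceptor of killer T cells, had 79.4 CPM from 65 UMIs in muscle-rich spots, 20.4 CPM in neighbours, 5.79 CPM in all other spots and 9.72 CPM in tumour-poor spots. Gzma and Gzmb, proteases of the killer granule, were 2.96-fold (2.14 to 4.05) and 3.22-fold (2.22 to 4.62) above neighbours, and Nkg7, a protein of the granule membrane, 3.78-fold (2.39 to 5.9). Cd4, the helper T cell coreceptor also found on some macrophages, was 4.78-fold above neighbours (3 to 7.56). With the top 1% of spots taken in place of the top 3%, Cd3e, Trac, Cd8a, Gzmb, Nkg7, Cxcl9 and Ccl5 were all below their neighbours in CPM. The log2 ratio was -0.22 for Cd3e. Those neighbours include other muscle-rich spots, so a stricter choice of muscle and a changed comparison cannot be told apart. Foxp3, which defines the regulatory T cells in which Csnk2b is deleted, gave 2 UMIs in muscle-rich spots, 4 in neighbours and 49 in all other spots, too few for a ratio. Csnk2b itself had 263 CPM in muscle-rich spots and 359.8 CPM in neighbours, and since every other cell keeps the gene this does not check the deletion.

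Patch by patch the T cell contrast was uneven. In the patch of 44 spots Cd3e had 113 CPM against 21.4 in its neighbours, and in the patch of 23 spots 140.1 CPM against 122. Trac had 126 CPM against 28.7 around the larger patch and 199 CPM against 111 around the smaller. Both patches were thus rich in T cell RNA. Around the smaller patch the tissue within 3 steps was nearly as rich in Cd3e, but less rich in Trac.

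Macrophage genes took a higher share of the muscle-rich spots than of neighbours. The list gave fewer UMIs per spot, 146 in muscle-rich spots and 332 in neighbours. That sum includes Gpnmb, which pigment cells also make, and 8 of the 18 genes were above neighbours per spot. Of the 18 measured macrophage genes, 17 were at least 2-fold higher in CPM than in all other spots and 12 than in neighbours. C1qa, a complement subunit made by macrophages, ranged over spots from 397 to 6553 CPM with a median of 2373, against a median of 728 in neighbours. In the sums it had 2251 CPM in muscle-rich spots, 762 in neighbours and 5476 in tumour-poor spots, and its UMIs per spot were 0.98 times those of neighbours (0.926 to 1.04). Ptprc, the pan-leukocyte antigen CD45, was 3.39-fold above neighbours in CPM and 1.12-fold per spot (0.963 to 1.31).

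Resident and type 2 macrophage genes, markers of tissue macrophages that clear debris and repair, included 3 of the 7 genes that were denser per spot than in neighbours. Of the 14 measured, all were at least 2-fold higher in CPM than in all other spots, 13 than in neighbours and none than in tumour-poor spots, where 10 were at least 2-fold lower. Cd163, a scavenger receptor for haemoglobin, gave 1.48 UMIs per spot in muscle-rich spots and 0.632 in neighbours, 2.34-fold (1.77 to 3.11). Lyve1, on macrophages around vessels and on lymphatic endothelium, was 2.31-fold denser (1.36 to 3.94), and Gas6, a ligand that bridges dying cells to macrophages, 2.3-fold (1.99 to 2.66). Against tumour-poor spots these genes were lower, with Cd163 at 136 CPM in muscle-rich spots and 634 CPM in tumour-poor spots and Mrc1, a mannose receptor, at 613 and 1408 CPM. These genes were thus high at the tumour-poor margin as well as in the muscle.

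Some macrophage genes were no higher in the muscle than just around it. Spp1, an osteopontin made by tumour-associated macrophages, had 725 CPM in muscle-rich spots and 813 CPM in neighbours, and per spot 7.92 and 26.8 UMIs. Arg1, an arginase of suppressive macrophages, had 83 and 83.5 CPM in the same order. Both were above all other spots, Spp1 4.08-fold (3.75 to 4.43) and Arg1 3.61-fold (2.79 to 4.6), and with the top 1% of spots both were below them, at log2 ratios of -0.96 and -0.091. Gpnmb, which pigment cells also make, was lower at 1748 CPM in muscle-rich spots and 4733 CPM in neighbours, in step with the melanocytic genes. Both gave more UMIs per spot outside the muscle-rich spots, with Spp1 at 32.1 at 1 step and Arg1 at 3.19 at 3 steps, against 0.907 for Arg1 in the muscle-rich spots.

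MHC class II genes, which present antigen to helper T cells, were high. All 7 measured were at least 2-fold higher in CPM than in both all other spots and neighbours, and none was 2-fold higher or lower than in tumour-poor spots. Cd74, the chain that escorts class II molecules, ranged from 302 to 24786 CPM over muscle-rich spots with a median of 4185, against a median of 1055 CPM in neighbours and 66.5 in all other spots. Its UMIs per spot were 1.08-fold those of neighbours (1.04 to 1.13). H2-Eb1, a class II beta chain, was 3.44-fold above neighbours in CPM (3.15 to 3.75). With the top 1% of spots taken, Cd74 and H2-Eb1 were below neighbours, at log2 ratios of -0.06 and -0.31, but those neighbours include other muscle-rich spots. Of 10 measured class I genes, 7 were at least 2-fold above neighbours, while B2m, the common light chain, was 1.67-fold (1.62 to 1.72).

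Genes of the interferon gamma list were at least 2-fold higher in CPM more often than those of the type I list. Of 16 measured genes of the interferon gamma list, 13 were at least 2-fold above all other spots and 10 above neighbours. Gbp2b, a guanylate-binding protein, was 7.2-fold above neighbours (4.22 to 12.4) from 33 UMIs, and Gbp5 4.09-fold (3.1 to 5.37). Of 11 genes of the type I interferon list, 4 were at least 2-fold above all other spots and 3 above neighbours. Of all genes 20.2% and 15.2% were. In UMIs per spot, 8 of the 11 type I genes and 3 of the 16 interferon gamma genes were at least 2-fold below neighbours, where 78% of all genes were. Ifit1, an antiviral protein of that list, had 54.9 CPM in muscle-rich spots, 73 in neighbours and 84 in all other spots.

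Neutrophil genes were few in counts and high in share. All 8 measured were at least 2-fold higher in CPM than in all other spots and than in neighbours, and 5 than in tumour-poor spots. S100a8 (chromosome 3, 90669071 to 90670034), a subunit of the neutrophil protein calprotectin, had 125 UMIs in muscle-rich spots, 96 in neighbours and 309 in all other spots. It was 2.64-fold denser per spot than in neighbours (2.01 to 3.48), whereas its partner S100a9 was at 0.836 times (0.508 to 1.34) from 26 UMIs. The 2 subunits of the same protein therefore differed beyond counting error. Il1b, an inflammatory cytokine, was 3.15-fold above neighbours in CPM (2.02 to 4.83). With the top 1% of spots taken, S100a9 and Il1b were below neighbours, at log2 ratios of -0.28 and -0.12, while S100a8 stayed above. Those neighbours include other muscle-rich spots.

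Of 12 measured complement genes, 11 were at least 2-fold higher in CPM than in all other spots and 10 than in neighbours, and 7 were above neighbours in UMIs per spot. C3, the central component, had 1947 CPM in muscle-rich spots, 409 in neighbours and 83 in all other spots, and was 1.58-fold above neighbours per spot (1.48 to 1.69). C6, a part of the membrane attack complex, was 2.53-fold denser (1.85 to 3.46). Serping1, an inhibitor of the first complement proteases, was 1.75-fold denser (1.53 to 2). As with the macrophage genes, 8 of the 12 were at least 2-fold lower than in tumour-poor spots, where C3 had 3982 CPM.

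Other lymphoid and granulocyte lists gave mixed counts. Against neighbours, where 15.2% of all genes were at least 2-fold higher, 6 of 11 measured CD4 helper and regulatory T cell genes, 1 of 4 B and plasma cell genes, 2 of 6 eosinophil and mast cell genes, 4 of 7 dendritic cell genes and 2 of 7 checkpoint genes were at least 2-fold higher in CPM. Some single genes were sparse in the muscle. Cd79a, a B cell receptor subunit, gave 2 UMIs in muscle-rich spots, while Ighm, the IgM heavy chain, gave 79 UMIs and was 5.36-fold above neighbours in CPM (3.91 to 7.34). The mast cell protease Mcpt4 gave no UMI in muscle-rich spots and 35 UMIs in tumour-poor spots, and Cma1 gave 3 and 39 UMIs. Tnfrsf9, a costimulatory receptor, was lower in muscle-rich spots than in all other spots, with 13.4 and 27.4 CPM from 11 UMIs in the muscle.

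T cell, Cd74 and chemokine RNA was graded with distance from the muscle. The macrophage list gave 146 UMIs per spot in the muscle-rich spots, 309 at 1 step and 351 at 4 steps. That list includes Gpnmb, which pigment cells also make. From the muscle-rich spots outwards at 0, 1, 2 and 3 steps the pan T cell list had 1399, 801, 462 and 282 CPM, and 15.3, 19.9, 15.4 and 11.4 UMIs per spot. Beyond 10 steps it had 72.5 CPM and 2.64 UMIs per spot. The list, with Thy1 in it, thus gave the most UMIs per spot at 1 step and fewer farther out. The steps were not computed without Thy1. Single genes differed, with Cd3e at 1.28 UMIs per spot in the muscle-rich spots and 2.08 at 1 step, and Cd8a at 0.867 and 0.538. Cd74 gave 56.3, 74.8, 50 and 31.3 UMIs per spot over the same steps, and Ccl8 52.5, 54.4, 34.6 and 14.9. Cxcl14 gave 9 UMIs per spot in the muscle-rich spots, 9.06 at 1 step and 0.489 at 4 steps. The melanocytic list ran the other way, from 12875 CPM in the muscle-rich spots through 29241 CPM at 1 step to 42538 CPM at 3 steps.

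**Figure D4:**
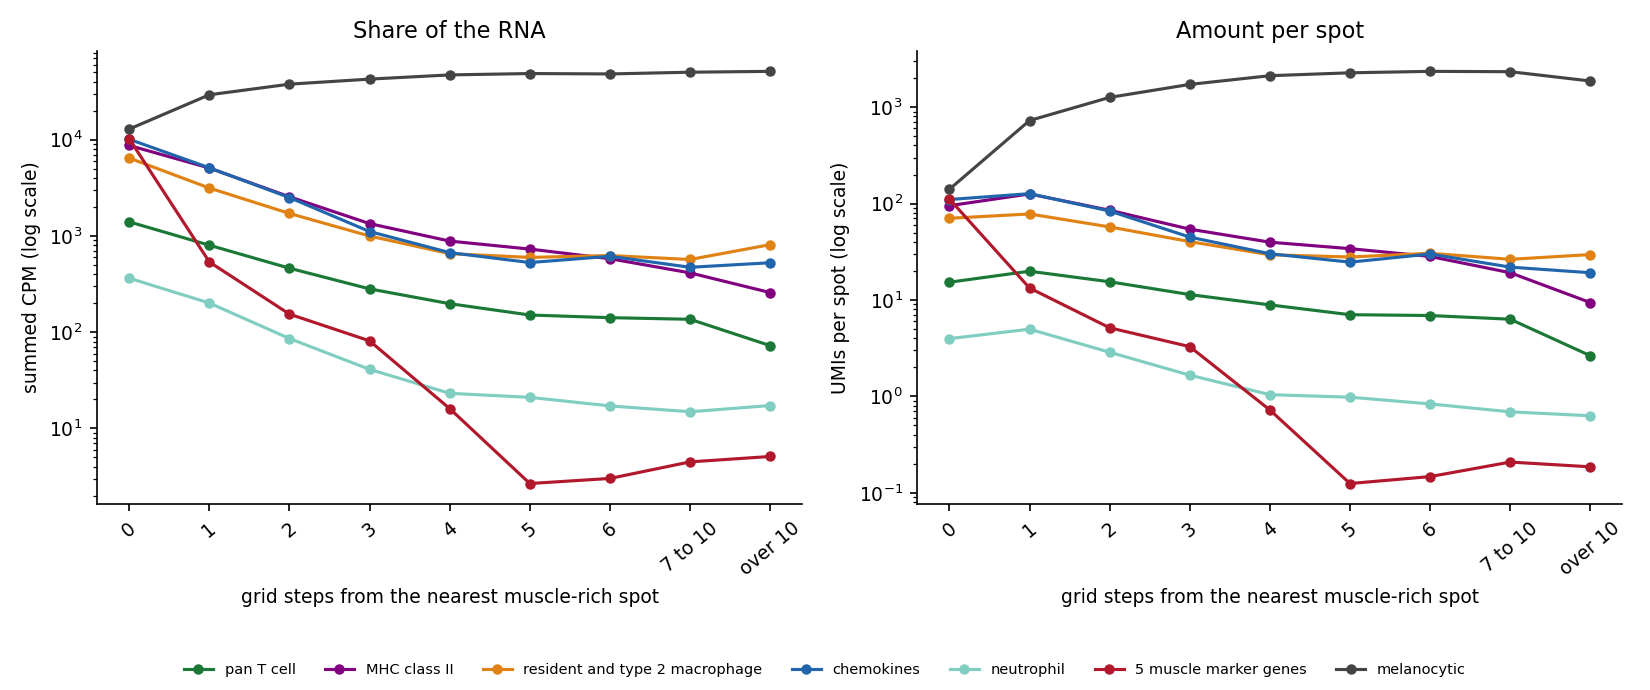
Gene lists of the KO section against distance, in grid steps from the nearest muscle-rich spot, with 0 for the muscle-rich spots. Left, summed CPM, and right, UMIs per spot, both on log scales. The immune lists drawn are lower at each step out to 4 steps in CPM and highest per spot at 1 step, and the melanocytic list is higher at each step out to 3 steps in both panels.

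The 2 patches differed in some immune genes, while the pan leukocyte list was similar, with 3168 CPM in the patch of 44 spots and 3123 CPM in the patch of 23. Resident macrophage genes were higher in the patch of 44 spots than in the patch of 23. Cbr2, a reductase of resident macrophages, had 424 and 40.7 CPM, a ratio of 10.4 (5.38 to 23.2). Retnla, a secreted product of type 2 macrophages, gave 52 UMIs in the larger patch and none in the smaller, where 3 counts would be 13.6 CPM, and F13a1, a clotting factor subunit of such macrophages, had 1002 and 407 CPM. Ccl8 followed with 6662 and 3083 CPM, and C6 with 189.6 and 22.6 CPM. The adipocyte gene Cfd had 483 CPM in the larger patch and 4.52 CPM in the smaller.

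The smaller patch had more haemoglobin, Ccl5, Spp1 and S100a8 RNA. Haemoglobin genes Hbb-bs and Hba-a2 had 10733 and 8111 CPM in the patch of 44 spots and 36769.7 and 25592 CPM in the patch of 23. Ccl5 had 702 and 1238 CPM, Spp1 438 and 1080.3 CPM and S100a8 133 and 249 CPM. The pan T cell list differed less, with 1374 and 1745 CPM. The part of blood RNA in these differences was not tested.

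**Figure D5:**
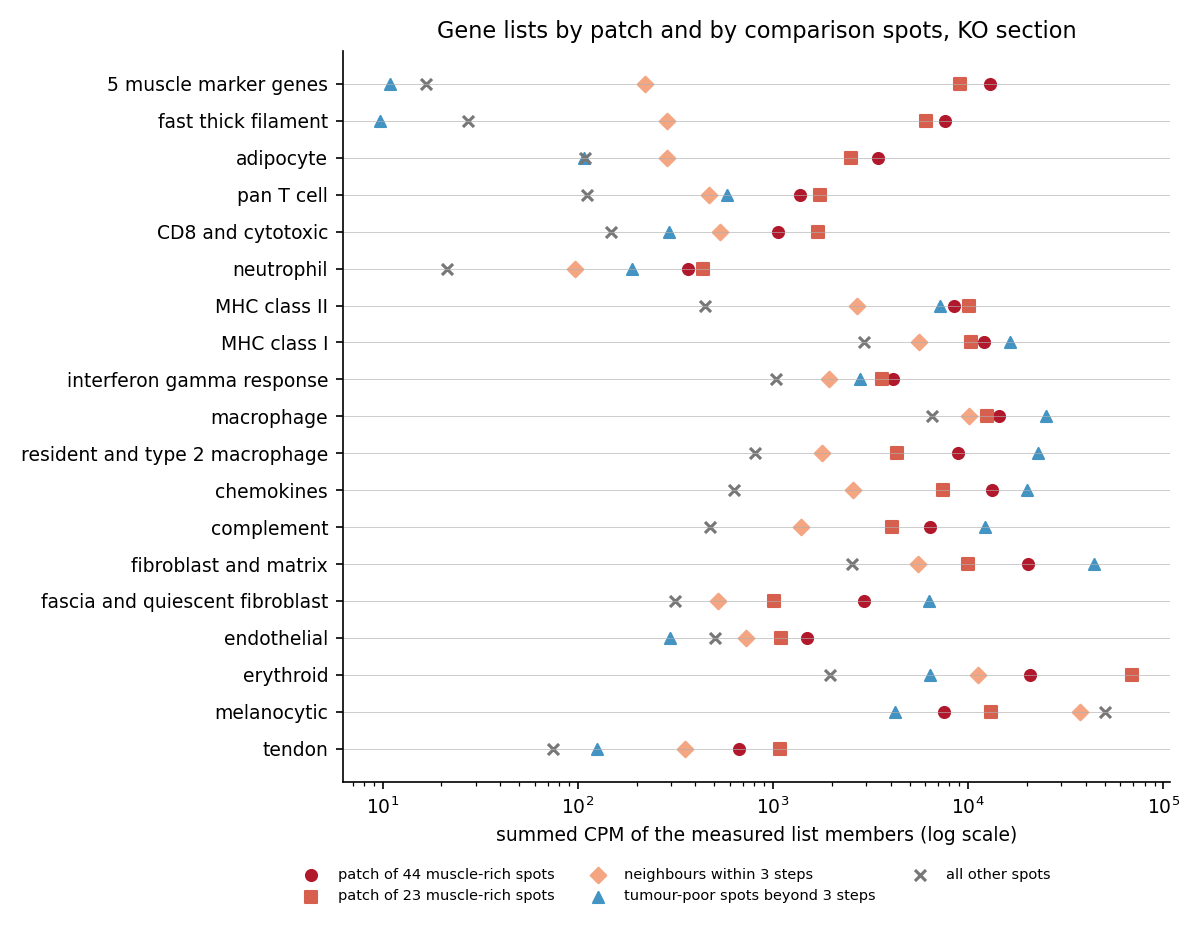
Summed CPM of the measured members of each gene list in the KO section, on a log scale. Symbols are the patch of 44 muscle-rich spots, the patch of 23, neighbours, distant tumour-poor spots and all other spots. Both patches exceed the neighbours for every list shown but the melanocytic, and T cell lists exceed the tumour-poor spots while resident macrophage, complement and fibroblast lists stay below them.

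Muscle-rich spots with less tumour RNA had more immune RNA. The 75 spots were split at their median melanocytic CPM into 37 with less and 38 with more. The spots with less had 2112 CPM of pan T cell genes and 13418 CPM of MHC class II genes, against 825 and 4899 CPM in the spots with more. The macrophage list, which includes Gpnmb, differed less, at 15254 and 11919.5 CPM. A split by muscle RNA gave 1325 CPM of pan T cell genes in the spots with more muscle RNA and 1443 CPM in those with less, but 10.6 and 20.1 UMIs per spot. These spots also differed in depth, with medians of 7346 and 11626 UMIs in the same order. The housekeeping list gave 68.9 and 144 UMIs per spot, and the part of depth in the T cell difference was not tested. UMIs per spot of pan T cell genes were 20.9 in the spots with less tumour RNA and 9.84 in those with more.

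Endothelial and matrix genes took a larger share of the muscle-rich spots than of neighbours, but their list sums gave fewer UMIs per spot than in neighbours. Gene by gene, 10 of 16 fibroblast and matrix genes and 2 of 13 endothelial genes were above neighbours per spot, as were 7.77% of all genes. The endothelial list gave 13.9 UMIs per spot in muscle-rich spots, 23.8 in neighbours and 19.2 in all other spots. The fibroblast and matrix list gave 169, 181 and 96.7 in the same order. Of 13 endothelial genes, 11 were at least 2-fold above all other spots, 7 above neighbours and 12 above tumour-poor spots, with Cdh5, the cadherin of endothelial junctions, at 200.2 CPM in muscle-rich spots, 102 in neighbours and 32.8 in tumour-poor spots. All 9 measured pericyte and smooth muscle genes were at least 2-fold above tumour-poor spots, though Des, the highest, is also a fibre gene. Of 16 fibroblast and matrix genes, 13 were at least 2-fold above neighbours and 7 at least 2-fold below tumour-poor spots. Col1a1, the main collagen, had 3078 CPM in muscle-rich spots, 1056 in neighbours and 8139 in tumour-poor spots. Smoc2, a matrix protein, was an exception with 169.7 CPM in muscle-rich spots and 6.07 CPM from 5 UMIs in tumour-poor spots. Thbs4, a thrombospondin of tendon and muscle, was 7.43-fold above neighbours (5.96 to 9.26).

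Blood RNA, like immune RNA, took a larger share of the muscle-rich spots than of neighbours and of all other spots. The 5 measured erythroid genes summed to 30881 CPM in muscle-rich spots, 11282 in neighbours, 1949 in all other spots and 6343 in tumour-poor spots, and over muscle-rich spots the sum ranged from 226 to 285474 CPM. All 5 were at least 2-fold higher in CPM than in each of the other 3 sets. Per spot they gave 337 UMIs in muscle-rich spots, 371 in neighbours and 488 at 1 step. The median over muscle-rich spots was 13481 CPM, and the patch of 23 spots had 69413 CPM against 20836 CPM in the patch of 44. With the top 1% of spots taken, Hbb-bs was below neighbours at a log2 ratio of -0.95, but those neighbours include other muscle-rich spots. The part of blood in the T cell and neutrophil values was not tested. The background of 4 measured genes of organs not in the section was 23.2 CPM in muscle-rich spots, 18.4 CPM in neighbours and 17.3 CPM in all other spots.

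The WT section had little muscle by the same limit. Of its 2775 spots with at least 2000 UMIs, 10 reached the KO limit, with 81478 UMIs in all, so a count of 0 there allows up to 36.8 CPM. The fibre genes differed, with Tnnt1 at 7.33 CPM in the KO spots and 736 CPM in the WT spots and Myh4 at 2569 and 307 CPM. Cd3e, Trac, Cd8a and S100a8 gave no UMI in the WT spots, where the KO spots had 117, 140.4, 79.4 and 153 CPM. The 14 pan T cell genes without Thy1 summed to 1090.3 CPM in KO muscle-rich spots, gave no UMI in the 10 WT spots and had 35.9 CPM in all other WT spots. Resident macrophage genes were present in both, with Cd163 at 136 CPM in the KO and 184 CPM in the WT spots and Ccl8 at 4806 and 1252 CPM. Cd74 had 5157 CPM in the KO and 1239.6 CPM in the WT spots. With 1 section per genotype, and 10 spots in 1 of them, genotype, section and place in the tumour cannot be told apart.

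The authors' deposited table of Moran's I, a score of how strongly a gene clusters in space, ranks these genes in the KO section. In the authors' deposited table Ccl8 had 0.719, rank 7 of 19339 genes, C1qa 0.696 and C3 0.675, the marker Tnnc2 0.618 and Cxcl14 0.591. By the authors' deposited table Cd3e had 0.34 and Cd8a 0.246. The scores of Ccl8, C1qa and C3 were thus above that of the muscle marker, and those of Cd3e and Cd8a were below it.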

How the data were processed

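Each of the 2 sections, 1 WT and 1 KO, gave a table of genes by spots. The authors deposited it as raw UMI counts. Per the file headers the software was Space Ranger 2.1.0, and mm10 and featureCounts are also named in the submitters' processing notes, without their role. The authors deposited grid positions, barcodes and gene names beside them (unit other, no measurement), and a Moran's I score per gene, whose steps are not stated. Of 4992 grid positions per section, 2138 barcodes lay under tissue in both, since barcodes stand for positions.

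Spots under 2000 UMIs were left out, 222 of 2746 in the KO section. No doublet caller was run, and no cell type was assigned to a spot. Counts were summed over each set of spots, scaled to the set's total, and divided. Ratios carry exact conditional binomial (Clopper-Pearson) 95% intervals for counting error only. A gene counted as higher or lower at a ratio of at least 2 or at most 0.5. Genes with at least 500 UMIs were counted over the section, and genes of the lists with at least 100. Of 560 genes in 46 lists, 529 were in the matrix of 19465 genes, and 198 of 266 immune list genes were measured. The 22 symbols on more than 1 row were left out as genes but kept in totals.

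Members, lists and comparisons were chosen with earlier results of these data known. Genes could be named if they were markers, the most abundant or most extreme of a list, among the 15 highest or lowest ratios of a comparison, or immune genes past 2-fold, which allowed 395 genes. Positions are those of RefSeq for GRCm38, the assembly that mm10 names. The ratio and its interval were tested on simulated data. Alternatives were other depth limits, shares of spots, weights, scalings (among them TMM by edgeR 4.0.16 in R 4.3.3), gene filters, markers, patches and neighbourhoods. UMIs per spot and the tumour-poor spots were chosen after seeing the data. Python 3.11.15, numpy 2.4.6, scipy 1.17.1, pandas 2.3.3 and matplotlib 3.10.9 were used.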

Additional observations from a re-analysis of the deposited data

How the results depend on the processing

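Counts of genes at least 2-fold higher or lower depended most on the measure and on which spots were taken. Against all other spots 1182 genes were higher, 1641 were lower and 175 of the immune genes were higher, and against neighbours 821, 1120 and 141. With the top 1% of spots, 2979 genes were lower than in all other spots, 2012 were lower than in neighbours and 19 immune genes were higher than in neighbours. With the top 5%, 398 and 148 genes were lower. With equal weight per spot, 416 genes and 46 immune genes were higher than in neighbours. With median-of-ratios scaling, 889 genes were lower than in all other spots and 588 than in neighbours. With no filter on gene totals, 7043 genes were higher than in all other spots and 6324 than in neighbours, and with at least 2000 UMIs per gene 471 and 289, with 70 and 56 immune genes, because fewer genes enter. With neighbours within 1 step, 412 genes were higher, 744 lower and 54 immune genes higher. In UMIs per spot, 403 genes were higher, 8572 lower and 115 immune genes higher against all other spots, and 65, 8634 and 7 against neighbours. Against tumour-poor spots, 480 genes were lower and 62 immune genes higher. The cause of the other differences was not tested. Leaving out the patch of 44 or of 23 spots gave 118 and 147 immune genes above neighbours, and every other planned setting kept all 6 counts within 1.5 times.

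The check of single-gene directions left out UMIs per spot and the tumour-poor spots. In UMIs per spot 73 of the 198 immune genes were above neighbours, against 183 in CPM. Against tumour-poor spots 62 of the 198 were at least 2-fold higher in CPM and 46 at least 2-fold lower. Of 3357 ratios of named genes under the remaining alternatives, 3337 kept their direction or lay within 2-fold and 20 reversed. On the log2 scale, with the top 1% of spots against neighbours, the values were -0.13 for Cxcl9, -0.28 for Ccl5, -0.064 for Cd74, -0.24 for H2-Aa, -0.26 for H2-Ab1, -0.31 for H2-Eb1, -0.22 for Cd3e, -0.12 for Trac, -0.12 for Cd8a, -0.19 for Gzmb, -0.36 for Nkg7, -0.22 for Lyz2, -0.28 for S100a9, -0.12 for Il1b, -0.95 for Hbb-bs and -0.50 for Hba-a2. Against all other spots, Spp1 was at -0.96 and Arg1 at -0.091 with the top 1%, and Arg1 at -0.10 with equal weight per spot. Cfd was at -0.0011 against neighbours without the patch of 44 spots. The neighbours of the top 1% include other muscle-rich spots, so those reversals come with a changed comparison. Precision is limited by depth, since many immune genes had under 100 UMIs in the 75 spots, and by having 1 section. No paired analysis was possible because each genotype has 1 section and no result comes from a test.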

Other observations

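Nerve, fat and growth genes of the muscle-rich spots were outside the comparisons above. Adipocyte genes were high, with Cfd, the adipocyte protease adipsin, at 265 CPM in muscle-rich spots, 15.2 in neighbours and 1.5 in all other spots, almost all of it in the patch of 44 spots. Of 7 measured Schwann cell and nerve genes, 1 was at least 2-fold above neighbours and 3 were at least 2-fold below, against 15.2% and 11.8% of all genes. Of 11 hypoxia and glycolysis genes, 5 were at least 2-fold lower than in all other spots and 2 at least 2-fold higher, against 16% and 20.2% of all genes. Lcn2, an iron-binding defence protein, had 192 CPM in muscle-rich spots, 38.6 in neighbours and 4.46 in all other spots.

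In the authors' deposited tables Moran's I ran both ways between the sections. In these authors' deposited tables Ccl8 had 0.719 in the KO and 0.516 in the WT section, and Cd3e 0.34 and 0.126, while Arg1 had 0.483 and 0.836 and Spp1 0.603 and 0.716.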
